A study of Mus musculus with 4 samples.

Results

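The genes of glycolysis and of the cellular response to low oxygen were followed across the cell types of mouse bone marrow. The set held 34 genes of 32544 in the deposited gene lists, found by their symbols. They are 19 glycolytic enzymes and regulators, 3 transporters of glucose or lactate, and 12 genes of the hypoxia response. Ero1l is listed in the files under its symbol Ero1a, and Aldoa under 2 identifiers, of which ENSMUSG00000030695 was used. The data are droplet single-cell RNA-seq libraries of flow-sorted nucleated bone marrow cells from mice aged 10 weeks. WT replicates 1 and 2 and YAP1 heterozygote replicates 1 and 2 form the groups, 2 libraries each. The series compares cell percentages and gene expression between these genotypes. YAP1 is a transcriptional coactivator of the Hippo pathway. The labels do not give the heterozygote's allele, nor whether it was lost in all tissues, and they do not say that replicates came from separate animals. By Xist and Ddx3y, described below, the 2 libraries of a group differ in sex and so did not come from the same animal. The p-values below measure the spread between these libraries, which includes this difference of sex and may be partly technical.

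Glycolysis converts glucose to pyruvate in the cytosol, and lactate dehydrogenase turns pyruvate into lactate, which leaves the cell through monocarboxylate transporters. Several steps can be run by alternative isoenzymes that are encoded by different genes and respond to different regulators. When oxygen is low, prolyl hydroxylases stop marking the HIF alpha subunits for degradation, and HIF raises the transcription of many glycolytic genes and of genes for vessel growth, lipid storage and mitochondrial turnover. Neutrophils are known to rely on glycolysis for energy, and parts of the marrow are known to be poor in oxygen.

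HIF binds DNA at a short core, ACGTG or GCGTG. The RefSeq promoter windows of the members (build GRCm38.p6, 300 bases, of which 250 lie before the gene's start and 50 after it) were searched for both spellings on both strands. Windows were found for 31 of the 34 members, 46 windows in all, and none for Slc2a3, Bnip3l and Ndrg1. The core was present in 38 of the 46 member windows (82.6%), against 43.8% of all 32851 windows. Windows of one gene can overlap, and a match of letters is not a binding site. Both spellings contain CG, and the base composition of member windows and all windows was not compared. The 5 windows below are shown because the results turn on these genes: Hilpda for the genotype comparison, Slc16a3 for mature neutrophils, Pfkp for basophils, and Hk2 and Hk3 as hexokinase genes that led in different cell types. Where a gene had several windows, the one with the most matches is shown. This choice was made with the matches known. Capitals mark the core on either strand, and each sequence reads 5′ to 3′ on the gene's strand.
Hilpda, chr6:29272376-29272675, forward strand: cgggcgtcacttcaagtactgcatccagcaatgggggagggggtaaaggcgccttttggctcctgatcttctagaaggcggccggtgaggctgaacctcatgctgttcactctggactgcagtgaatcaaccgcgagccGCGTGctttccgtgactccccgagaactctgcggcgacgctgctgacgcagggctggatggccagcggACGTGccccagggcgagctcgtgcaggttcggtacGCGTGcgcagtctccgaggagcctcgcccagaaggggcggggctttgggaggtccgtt
Slc16a3, chr11:120948817-120949116, forward strand: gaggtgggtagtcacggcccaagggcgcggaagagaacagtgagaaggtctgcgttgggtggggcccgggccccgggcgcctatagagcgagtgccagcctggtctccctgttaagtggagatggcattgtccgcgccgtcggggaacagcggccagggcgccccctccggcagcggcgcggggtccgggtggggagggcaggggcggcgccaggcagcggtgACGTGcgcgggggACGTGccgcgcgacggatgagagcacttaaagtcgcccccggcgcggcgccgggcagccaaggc
Pfkp, chr13:6648722-6649021, reverse strand: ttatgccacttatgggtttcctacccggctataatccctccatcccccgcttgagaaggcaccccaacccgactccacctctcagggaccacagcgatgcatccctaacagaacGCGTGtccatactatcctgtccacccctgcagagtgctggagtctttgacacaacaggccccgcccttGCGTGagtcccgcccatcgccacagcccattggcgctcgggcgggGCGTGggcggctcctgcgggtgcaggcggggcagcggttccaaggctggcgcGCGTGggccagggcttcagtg
Hk2, chr6:82774405-82774704, reverse strand: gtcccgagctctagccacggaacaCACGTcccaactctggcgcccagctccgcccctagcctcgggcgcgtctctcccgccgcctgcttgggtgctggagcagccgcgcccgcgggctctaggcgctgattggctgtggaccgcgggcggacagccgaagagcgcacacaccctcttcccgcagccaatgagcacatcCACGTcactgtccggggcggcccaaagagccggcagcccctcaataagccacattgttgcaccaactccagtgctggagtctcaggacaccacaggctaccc
Hk3, chr13:55021336-55021635, reverse strand: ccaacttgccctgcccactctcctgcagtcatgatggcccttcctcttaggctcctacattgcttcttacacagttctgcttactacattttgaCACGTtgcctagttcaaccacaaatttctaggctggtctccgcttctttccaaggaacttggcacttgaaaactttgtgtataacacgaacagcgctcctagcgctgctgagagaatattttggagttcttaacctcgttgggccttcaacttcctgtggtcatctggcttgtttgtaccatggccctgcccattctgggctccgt
The Hilpda window held 3 matches, of which 1 was ACGTG and 2 were GCGTG. A further, overlapping Hilpda window held 1 match. The Pfkp window held 4 matches, all GCGTG. Slc16a3 and Hk2 held 2 ACGTG matches each, and Hk3 held 1. The Vegfa gene has 2 windows, of which 1 held 2 matches and the other held 0.

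After filtering, the libraries held between 10565 and 13231 cells, with between 112806900 and 119855112 UMIs before filtering and a median of 5518 to 6747 UMIs per kept cell. Between 27 and 62 barcodes were shared by any pair of libraries. Ddx3y was expressed in replicate 1 of each genotype and Xist in replicate 2 of each, so the libraries of each group differ in sex by these transcripts and the groups do not. Yap1 itself was counted with 6, 7, 0 and 6 UMIs in WT replicates 1 and 2 and YAP1 heterozygote replicates 1 and 2, too few to check the genotype labels, and the 0 allows up to 0.0284 CPM. Cells were clustered without the 34 members and named from marker genes as "-like" classes, of which 18 had at least 20 cells in every library. Clusters 9 and 29 of the mature neutrophil-like class stood apart, since WT replicate 1 gave 1248 of the 1458 cells of the former and 440 of the 462 cells of the latter. Without them the mean level of a member in that class was between 0.781 and 1.02 times its value with them, the same 8 members had their highest level there, and the mean share of an isoenzyme there moved by at most 0.572 percentage points. The mature neutrophil-like class carried Retnlg at 46031 CPM and Cxcr2 at 1245 CPM. The basophil or mast cell-like class carried Prss34 at 23418 CPM and Mcpt8 at 15884 CPM, markers of basophils.

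Levels below are CPM, a gene's UMIs in each 1000000 UMIs of a class in a library. Each transcript is counted once at its 3′ end, so these levels do not scale with transcript length. Capture and mapping can still differ between genes, so levels and shares of different genes compare UMIs and only roughly transcripts. A mean ± SD is over the 4 libraries, and values by library stand in the order WT replicate 1, WT replicate 2, YAP1 heterozygote replicate 1, YAP1 heterozygote replicate 2. Levels between classes are a description with no test, as cells of all classes come from the same 4 libraries. A class sum cannot tell fewer expressing cells from less RNA per cell. Classes also differ in UMIs per cell, so a higher CPM need not mean more UMIs of a gene per cell.

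The members were spread unevenly over the marrow. Mature neutrophil-like cells held the highest mean level of 8 members, neutrophil progenitor-like cells of 6, basophil or mast cell-like cells of 4 and immature neutrophil-like cells of 3. The 19 enzymes together reached 5344 CPM in neutrophil progenitor-like cells, 5011 CPM in immature neutrophil-like cells and 4878 CPM in mature neutrophil-like cells (4907.5 CPM without clusters 9 and 29), against 956.5 CPM in plasma cell-like cells and 1426 CPM in B cell-like cells. The 3 transporters together reached 1033 CPM in mature neutrophil-like cells (1049.9 CPM without those clusters) and 358 CPM in immature neutrophil-like cells, and 21.3 CPM in B cell precursor-like cells. The 12 hypoxia genes together were highest in basophil or mast cell-like cells at 840.3 CPM. The clusters 25 and 33 of that class, described below, had 1252 and 609 CPM. Mature neutrophil-like cells followed at 608 CPM (599 CPM without clusters 9 and 29), with 896 CPM in their cluster 4. Genes that cell isolation can raise were also highest in the basophil or mast cell-like class, as given below. In the map of levels by class the neutrophil and basophil classes named here are the columns with the most bright cells.

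**Figure D1:**
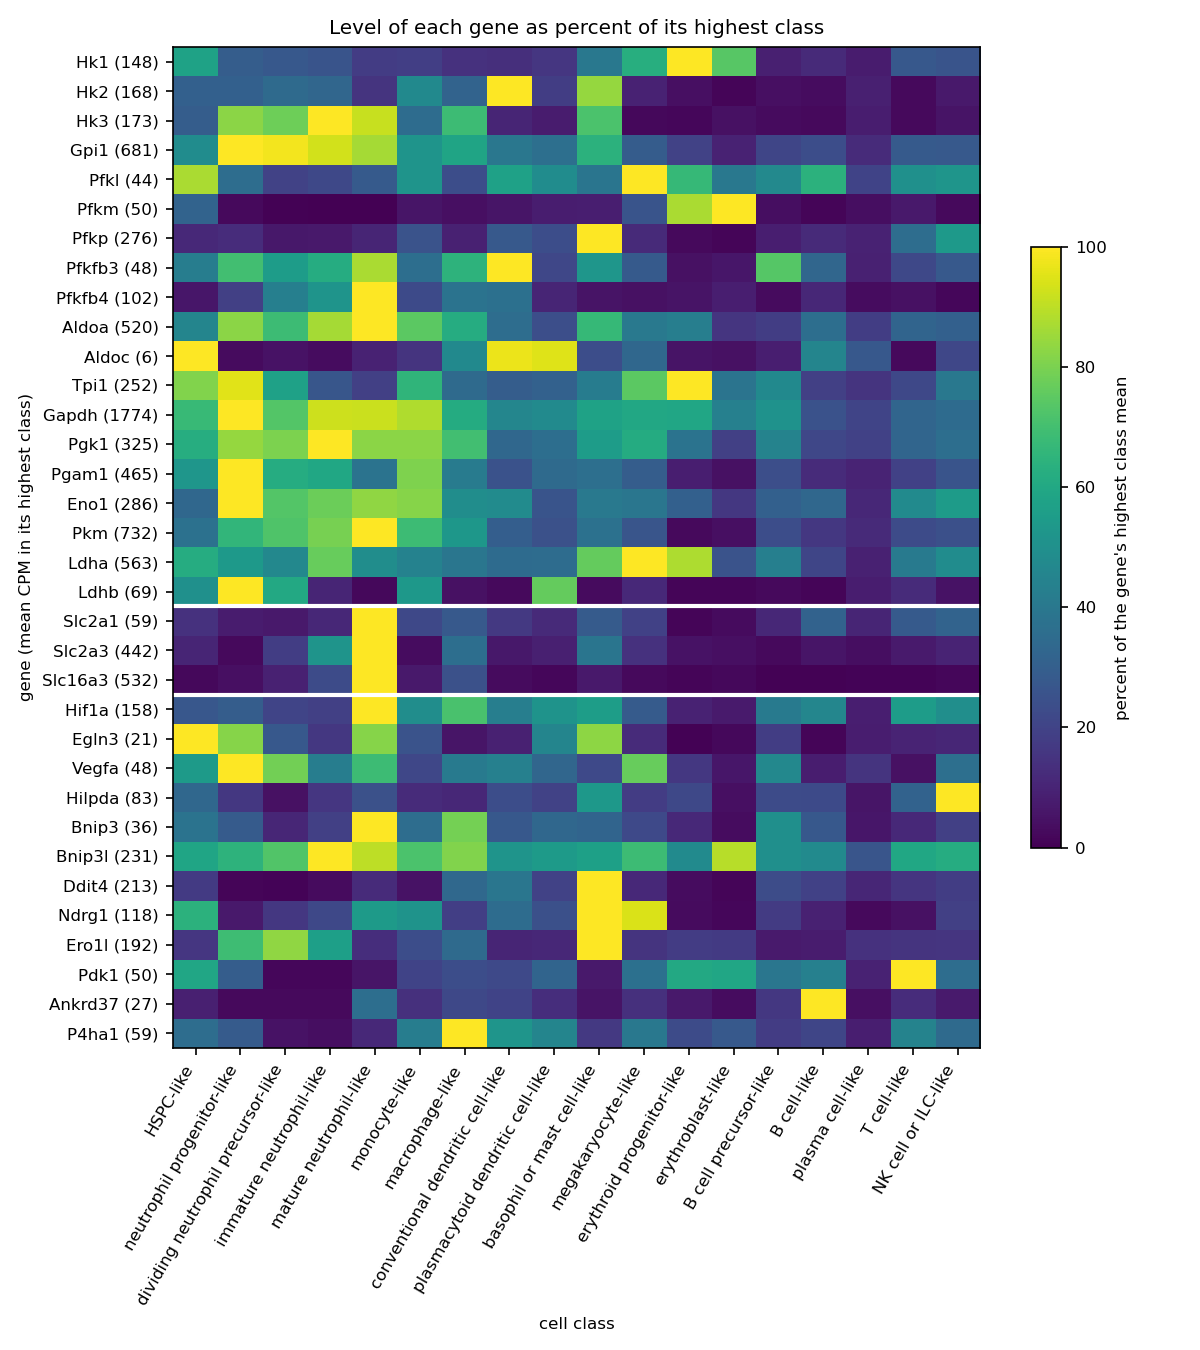
Mean level of each of the 34 genes in 18 classes, as a percent of the gene's highest class mean (colour), with that highest mean in CPM beside the gene name; white lines separate enzymes, transporters and hypoxia genes. The 3 transporters are brightest in mature neutrophil-like cells, and Pfkp, Ddit4, Ndrg1 and Ero1l in basophil or mast cell-like cells.

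Enzymes with no alternative in the set differed in where they peaked. Gapdh, which oxidises glyceraldehyde phosphate, was the most abundant member at 1774 ± 129 CPM (SD, n = 4) in neutrophil progenitor-like cells, 4.83 times its level in plasma cell-like cells. Gpi1, the isomerase after hexokinase, reached 681 ± 36.6 CPM (SD, n = 4) there and 66.3 CPM in erythroblast-like cells. Pgam1, the phosphoglycerate mutase, was highest in neutrophil progenitor-like cells (465 ± 17.7 CPM; SD, n = 4) and next in monocyte-like cells (376 CPM), with no overlap between the libraries' values. Pkm, the pyruvate kinase, showed the steepest contrast of these enzymes. It stood at 732 ± 47.7 CPM (SD, n = 4) in mature neutrophil-like cells, 42.3 times its 17.3 CPM in erythroid progenitor-like cells. Tpi1, the triose phosphate isomerase, was near its top in both erythroid progenitor-like cells (252 CPM) and neutrophil progenitor-like cells (241 CPM), whose library values overlapped. Eno1, an enolase, counted 80668 UMIs in kept cells, and its near-identical copy Eno1b 2552, so some reads may be split between them.

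Isoenzyme use differed between the classes. A share is an isoenzyme's UMIs as a percent of its family's UMIs, and only families with at least 20 UMIs in every library of a class were described, which gave 118 pairs of a family and a class. The same isoenzyme led in all 4 libraries in 113 of them.

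Hexokinases trap glucose in the cell as glucose phosphate. Hk1 led in erythroid progenitor-like cells with 90.4%, 93.3%, 96.2% and 95.8% of hexokinase UMIs, and had its lowest share in conventional dendritic cell-like cells with 13.5%, 5.43%, 9.22% and 12.8%. Hk2, the insulin- and hypoxia-responsive form, led in that dendritic cell-like class with 78.9%, 85.7%, 81.1% and 78.8%. It took 2.12%, 1.496%, 2.74% and 1.19% in erythroblast-like cells. The markers of the dendritic cell-like class were mixed, with Cd209a at 694.6 CPM, Clec9a at 28.7 CPM and Xcr1 at 13.9 CPM. Its top 10 genes held the macrophage markers C1qa and C1qb. Hk3, the myeloid form, led in mature neutrophil-like cells with 74.2%, 73.7%, 79.5% and 73.3%, and took 1.60%, 3.20%, 2.38% and 1.11% in erythroid progenitor-like cells. Each of the 3 genes thus held most of the hexokinase UMIs in a different class, and no library departed from the order. As levels, Hk3 was nearly even over immature (173 CPM) and mature (158 CPM) neutrophil-like cells. Basophil or mast cell-like cells split their hexokinase UMIs, with mean shares of 43.8% for Hk2, 38.0% for Hk3 and 18.3% for Hk1.

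Phosphofructokinase commits sugar to glycolysis. Pfkp, the platelet form, made up 93.2%, 92.9%, 92.5% and 92.3% of the family in basophil or mast cell-like cells, where it reached 276 ± 42.3 CPM (SD, n = 4), and 7.75%, 1.74%, 4.07% and 4.50% in erythroblast-like cells. The next class by Pfkp level was NK cell or ILC-like cells at 150.1 CPM (natural killer or innate lymphoid cells), and the library values of the classes did not overlap. Pfkm, the muscle form, led in erythroblast-like cells with 70.5%, 70.3%, 71.8% and 68.3%, and was almost absent from mature neutrophil-like cells with 0.194%, 0%, 0.25% and 0.787%, where the 0% of WT replicate 2 allows a share of up to 0.55% (3 counts, counting error only). Pfkl, the liver form, had its largest share in megakaryocyte-like cells with 45.6%, 47.2%, 48.3% and 53.8%, where Pfkp held 37.0% on average. Its smallest share was in basophil or mast cell-like cells with 5.49%, 5.88%, 5.91% and 5.94%. Pfkm thus had its largest share in erythroblast-like cells, and basophils had the largest Pfkp share.

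The PFKFB enzymes make and break an activator of phosphofructokinase. Pfkfb3, the form with the strongest kinase activity, led in B cell precursor-like cells with 92.4%, 91.6%, 91.9% and 93.6%. Pfkfb4 led in erythroblast-like cells with 64.5%, 79.2%, 83.0% and 81.8%, and in mature neutrophil-like cells it held 70.6% on average. The first of the erythroblast-like values, from WT replicate 1, was the lowest of the 4.

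In the remaining families the same gene led on average in every class described, 18 classes for most and 17 for the glucose transporters. Aldoa held at least 95.7% of aldolase UMIs on average in every class. Its partner Aldoc was largest in plasmacytoid dendritic cell-like cells with 3.84%, 4.29%, 4.69% and 4.46%, and took 0.0389%, 0.0678%, 0% and 0.0505% in neutrophil progenitor-like cells, where the 0% allows up to 0.0595%. Ldhb, the lactate dehydrogenase form that favours pyruvate formation, held 17.0%, 24.0%, 19.9% and 22.2% in plasmacytoid dendritic cell-like cells and 0.0978%, 0.24%, 0.204% and 0.163% in erythroid progenitor-like cells. Slc2a1, the widespread glucose transporter, came closest to parity in monocyte-like cells with 51.8%, 43.3%, 50.2% and 41.0%, and took 3.37%, 3.05%, 2.36% and 2.27% in immature neutrophil-like cells, where Slc2a3, the high-affinity form, took the rest. Among the mitophagy receptors, Bnip3 reached 11.9%, 14.4%, 13.98% and 18.4% in mature neutrophil-like cells and 0.629%, 0.55%, 0.753% and 0.277% in erythroblast-like cells. Bnip3l, the receptor that clears mitochondria from maturing red cells, took the remainder.

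**Figure D2:**
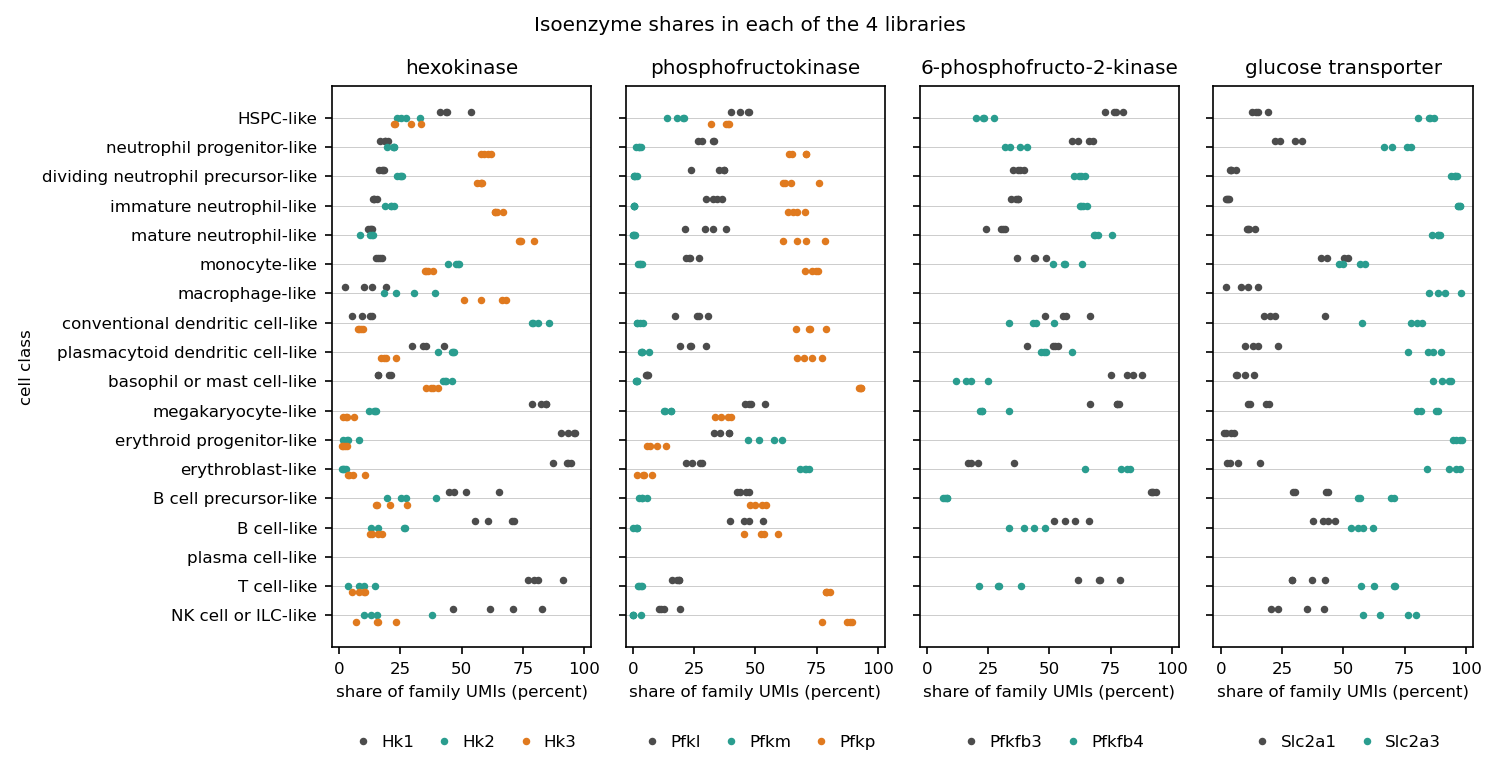
Share of family UMIs (percent) of each hexokinase, phosphofructokinase, PFKFB enzyme and glucose transporter in 18 classes; each point is 1 library, and classes with under 20 family UMIs in any library are left blank. Hk1, Hk2 and Hk3 each lead in different classes, and Pfkm leads in the erythroid classes, with 70.2% on average in erythroblast-like cells.

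Isoenzyme shares were also set side by side between genotypes. Of 269 shares, 47 (17.5%) were lower in both YAP1 heterozygote libraries than in both WT libraries and 44 (16.4%) were higher in both, and shares within a family depend on each other. With 2 libraries against 2 an exact two-sided permutation test cannot go below p = 0.333, which 91 shares reached, so no share passed 0.05. The largest difference between genotype means was 13.3 percentage points.

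Along the neutrophil classes, some enzymes stood lower in the more mature classes and others higher. Ldhb stood at 68.6, 41.4, 7.20 and 1.40 CPM on average in neutrophil progenitor-like, dividing neutrophil precursor-like, immature neutrophil-like and mature neutrophil-like cells. Pgam1 went from 465 to 288, 277 and 178 CPM over the same classes, and Tpi1 from 241 to 145, 67.5 and 48.2 CPM. Pkm went the other way, from 481 to 532, 581 and 732 CPM. Pfkfb4 went from 19.2 to 44.1, 52.5 and 101.9 CPM. These classes are groups of cells named from markers, and no order in time was inferred. The median UMIs per cell fell over them, from 26304 to 16698.5, 7993 and 3590.5 in WT replicate 1, and likewise in the other libraries. A rise in CPM is thus a larger part of fewer UMIs and need not mean more UMIs per cell.

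All 3 transporters had their highest level in mature neutrophil-like cells. Slc16a3, which exports lactate from glycolytic cells, was counted at 620.2, 559.6, 556 and 393 CPM in mature neutrophil-like cells, with the YAP1 heterozygote values below the WT values and replicate 2 of the heterozygote lowest. The next class was macrophage-like cells at 131 ± 45.2 CPM (SD, n = 4), and the lowest was B cell-like cells at 3.08 CPM, 173 times below. Macrophage-like cells carried the 6 neutrophil transcripts at 198090 CPM, against 333700 CPM in mature neutrophil-like and 14224 CPM in monocyte-like cells, and their part in the macrophage-like value of Slc16a3 was not tested. Slc2a3 was counted at 397, 465, 425 and 480.1 CPM, with genotypes overlapping. Its next class was immature neutrophil-like cells at 229 CPM. Slc2a1 was counted at 64.0, 59.3, 50.1 and 62.4 CPM, also overlapping, against 18.7 CPM in the NK cell or ILC-like class. For all 3 transporters every library value in mature neutrophil-like cells lay above every value of the next class.

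**Figure D3:**
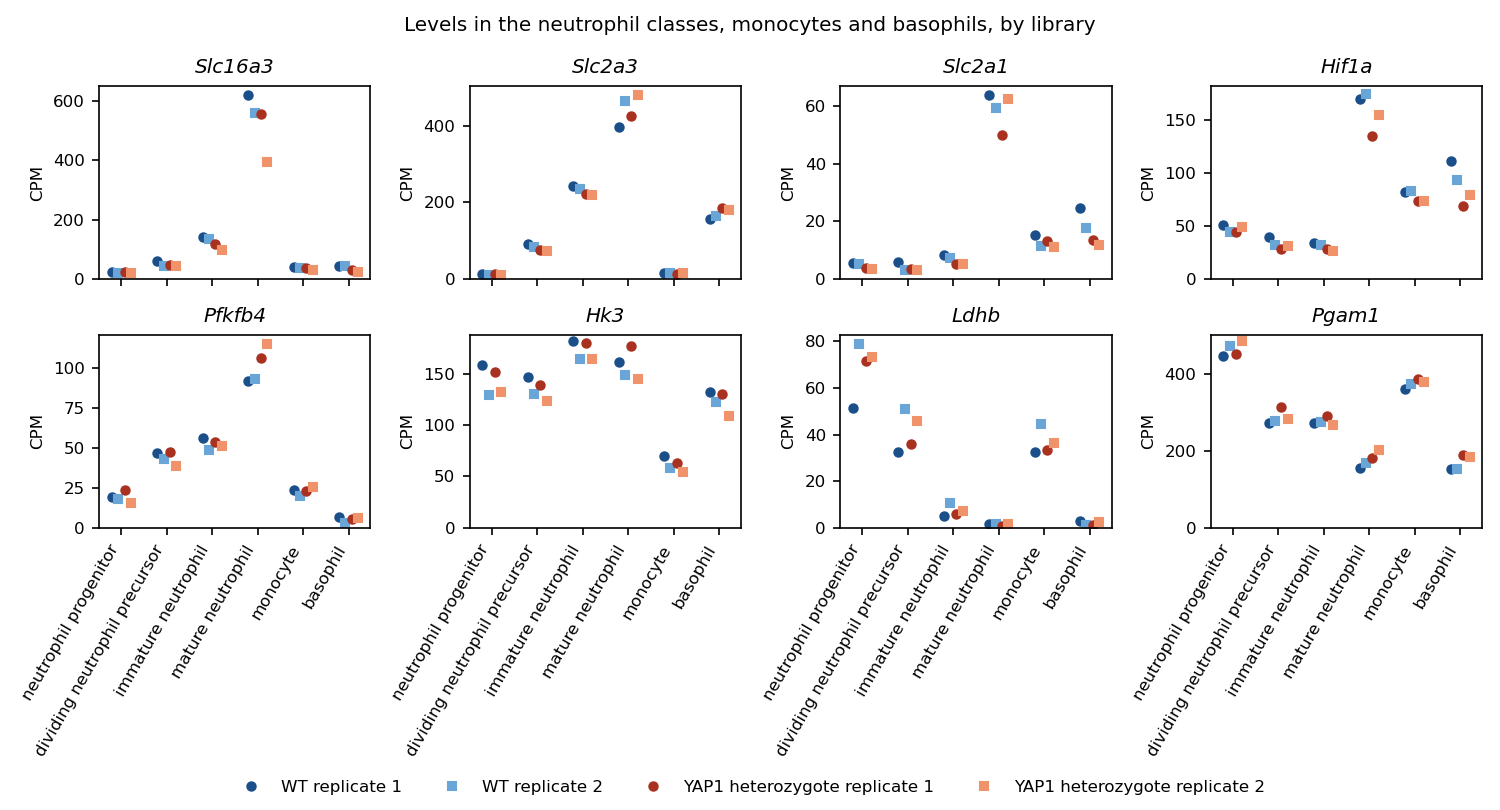
Level in CPM of 8 members in the 4 neutrophil classes, monocyte-like and basophil or mast cell-like cells; each symbol is 1 library, WT in blue and YAP1 heterozygote in red, circles for replicate 1 and squares for replicate 2. Slc16a3, Slc2a3, Slc2a1, Hif1a and Pfkfb4 are highest in mature neutrophil-like cells, while Ldhb and Pgam1 are highest in neutrophil progenitor-like cells.

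Regulators and targets of the hypoxia response showed a mixed pattern in mature neutrophil-like cells. Hif1a, the oxygen-regulated subunit of HIF, was counted at 170.0, 175, 135 and 154 CPM, its highest level of any class, with heterozygote below WT. Egln3, a prolyl hydroxylase that marks HIF and is itself a HIF target, was counted at 9.39, 19.0, 13.7 and 24.985 CPM, higher in both replicate 2 libraries. Vegfa, the vessel growth factor, stood at 48.0, 30.1, 25.7 and 27.2 CPM, with WT replicate 1 well above the rest. Hilpda, a small lipid droplet protein that inhibits triglyceride breakdown, stood at 28.2, 25.2, 12.5 and 16.5 CPM, with both heterozygote libraries below both WT libraries.
Of the mitophagy receptors, Bnip3 was counted at 27.3, 35.9, 33.7 and 47.4 CPM in mature neutrophil-like cells, with genotypes overlapping. Bnip3l was steadier at 201, 213, 207 and 211 CPM. Ddit4, an inhibitor of mTOR signalling, was counted at 41.6, 21.4, 24.4 and 18.3 CPM, highest in WT replicate 1. Ndrg1, a stress-responsive gene, was counted at 67.8, 58.6, 71.3 and 59.3 CPM. Ero1l, which drives disulfide formation in the endoplasmic reticulum, was counted at 33.4, 21.6, 24.1 and 22.7 CPM, below its 160.1 CPM in dividing neutrophil precursor-like cells.

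The clusters within mature neutrophil-like cells differed in these genes. Pooled over libraries, Slc2a1 stood at 28.2 CPM in cluster 2 and 110.2 CPM in cluster 4, Bnip3 at 12.5 and 86.2 CPM, Egln3 at 6.08 and 38.8 CPM, and Vegfa at 17.98 and 56.3 CPM. Pkm differed little, with 717 and 752 CPM. Clusters 2 and 4 drew on all 4 libraries, and their cells had a median of 5320 and 2565 UMIs. The 12 handling genes, such as Fos and Jun, which cell isolation can raise, summed to 6086.5 CPM in cluster 2, 21082 CPM in cluster 4 and 19059 CPM in cluster 9, and 6 abundant neutrophil transcripts such as S100a8 and S100a9 to 402720, 202030 and 234170 CPM. The part of either in the differences between clusters was not tested. Cluster 9, mostly of WT replicate 1, had the highest Vegfa at 70.2 CPM and Slc16a3 at 724 CPM. Genes for this comparison of clusters were picked after their values were seen.

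In basophil or mast cell-like cells several hypoxia genes stood higher by their mean than in any other class. Ddit4 was counted there at 227, 262, 199.8 and 162 CPM, against 83.5 CPM in the next class, conventional dendritic cell-like cells. Ero1l was counted at 183, 196, 208 and 180.3 CPM, with no difference between genotypes beyond their spread. Ndrg1 was counted at 141, 111, 118 and 102.9 CPM and overlapped with megakaryocyte-like cells at 112 CPM. All 3 had their highest mean in this class. The 12 handling genes also had their highest mean sum here, at 24599 CPM. Conventional dendritic cell-like cells followed at 12383 CPM and mature neutrophil-like cells at 11474 CPM. Their part in the differences between classes was not tested.
Hif1a stood at 112, 93.4, 68.5 and 79.1 CPM, with heterozygote below WT. Egln3 stood at 28.6, 13.3, 12.6 and 13.6 CPM, raised only in WT replicate 1. Vegfa was sparse at 21.98, 7.23, 0.816 and 11.9 CPM. Both genotypes thus varied widely for Vegfa, and their values overlapped.
Bnip3 was counted at 11.4, 11.1, 10.2 and 13.6 CPM and Bnip3l at 122, 149, 127 and 126 CPM. Slc2a3 was the main glucose transporter at 157, 164, 185 and 180.3 CPM, with heterozygote above WT. Slc2a1 was counted at 24.6, 17.8, 13.5 and 11.9 CPM, and Slc16a3 at 45.3, 45.0, 30.6 and 22.1 CPM. For these last 2 genes both heterozygote libraries were below both WT libraries.

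The class joined 2 clusters that differed in the same genes. Cluster 25 gave 208, 136, 161 and 79 cells and cluster 33 gave 102, 80, 106 and 75. Mean levels in cluster 25 and cluster 33 were 416 and 99.9 CPM for Ddit4, 307 and 97.7 CPM for Slc2a3, 198 and 74.9 CPM for Ndrg1, 195 and 83.7 CPM for Hk3, and 79.1 and 21.5 CPM for Hilpda. Gapdh was the reverse, with 593 and 1265 CPM. The 12 handling genes summed to 42386 CPM in cluster 25 and 14680 CPM in cluster 33, and their part in these differences was not tested.

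Hilpda was the member whose genotype difference passed the test below, so its level is given in each class with a mean of at least 10 CPM. Its order over classes began with NK cell or ILC-like cells at 82.3, 179, 19.9 and 50.9 CPM. Next came basophil or mast cell-like cells at 84.8, 56.7, 19.98 and 15.3 CPM. These classes overlapped each other, and within each the heterozygote libraries lay below the WT libraries.
HSPC-like cells (haematopoietic stem and progenitor cells) had 29.8, 28.9, 19.97 and 31.8 CPM, and T cell-like cells 25.4, 26.3, 24.99 and 27.2 CPM. Conventional dendritic cell-like cells had 28.3, 20.4, 7.61 and 21.6 CPM. Genotypes overlapped in all 3.
B cell precursor-like cells had 17.4, 17.6, 17.98 and 23.4 CPM, with heterozygote above WT. B cell-like cells had 25.015, 18.4, 14.7 and 15.9 CPM, and plasmacytoid dendritic cell-like cells 22.3, 16.6, 12.9 and 13.1 CPM. In both of these heterozygote was below WT.
Erythroid progenitor-like cells had 18.6, 19.6, 15.9 and 18.3 CPM, with heterozygote below WT by a small margin. Megakaryocyte-like cells had 12.2, 17.3, 13.9 and 16.1 CPM, and neutrophil progenitor-like cells 15.8, 13.2, 10.9 and 13.7 CPM, with genotypes overlapping.
Immature neutrophil-like cells had 20.5, 14.1, 8.25 and 9.15 CPM, and monocyte-like cells 13.1, 12.0, 6.66 and 9.69 CPM. Both showed heterozygote below WT. The lowest class was erythroblast-like cells at 3.53 ± 0.809 CPM (SD, n = 4). Between mean levels of 13.01 and 20.6 CPM, the library values of each class overlapped those of its neighbour in the order.
The NK cell or ILC-like value rested on few cells. Cluster 37, led by Rora and Gata3, gave 22, 27, 14 and 11 cells of that class but 32, 94, 1 and 21 of its Hilpda UMIs. In cluster 31, led by Gzma, Hilpda stood at 40.7, 22.5, 21.8 and 14.1 CPM. A single cell held 34 of the 104 Hilpda UMIs of the class in WT replicate 2.

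**Figure D4:**
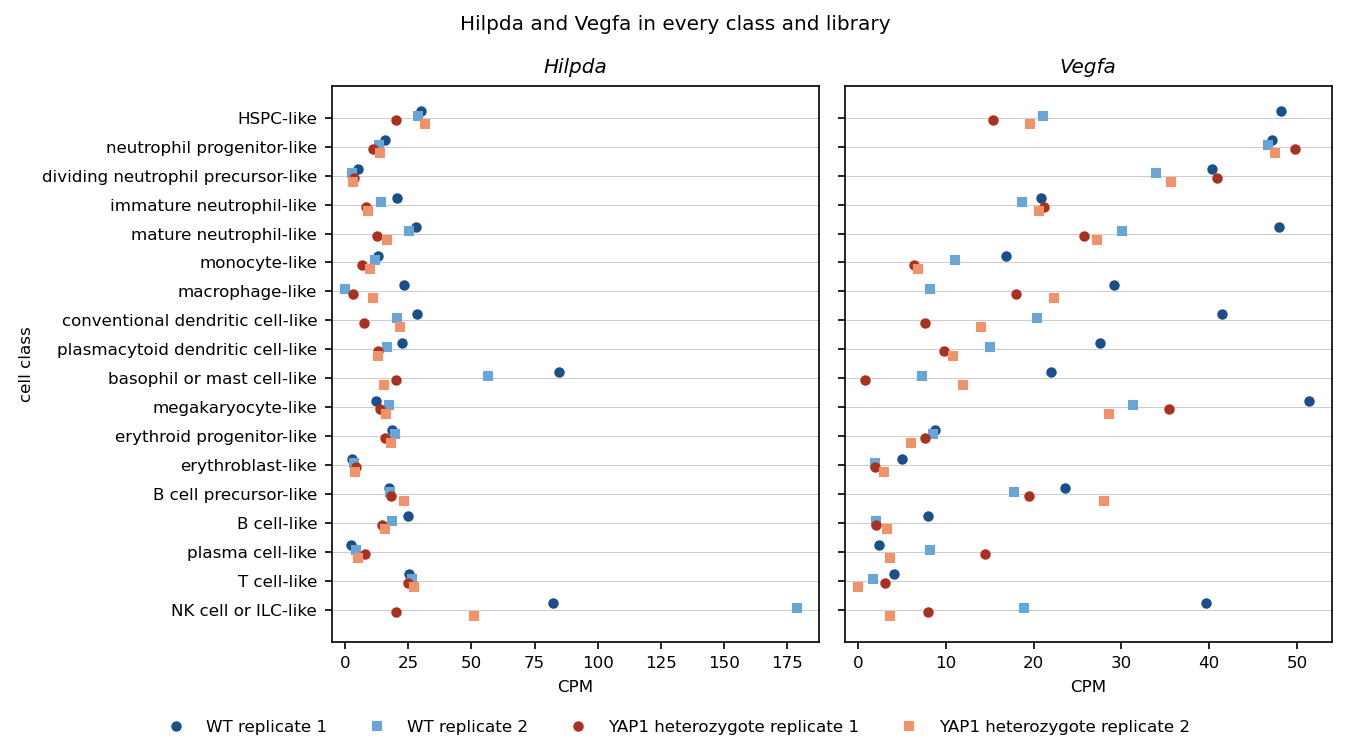
Level of Hilpda (left) and Vegfa (right) in CPM in 18 classes; each symbol is 1 library, WT in blue and YAP1 heterozygote in red, circles for replicate 1 and squares for replicate 2. Hilpda is highest in NK cell or ILC-like and basophil or mast cell-like cells, where both heterozygote libraries lie below both WT libraries, and Vegfa is highest in neutrophil progenitor-like cells at 47.8 CPM.

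Genotype was compared within each class by edgeR's quasi-likelihood test on UMI counts summed per library, with Benjamini-Hochberg adjustment over all genes of the class and a threshold of 0.05. These are called the main settings below. Of 612 pairs of a member and a class, 519 had enough counts to be tested, and 14 members were tested in every class. Only 1 pair was called, Hilpda in basophil or mast cell-like cells. Over the 18 classes 56 of 165405 gene tests were called, 0.0339%. An unadjusted p under 0.05 was reached by 41 member tests (7.9%), 37 lower and 4 higher in the heterozygote, against 4.71% of all gene tests. The direction of those tests over all genes was not counted. Member tests are not independent, as the same libraries enter each class. The number of calls depended on the libraries: leaving out replicate 1 of either genotype gave 3 calls, while 16 calls were made when WT replicate 2 was left out and 10 when YAP1 heterozygote replicate 2 was. Calls over all genes rose as well, to 0.277% without WT replicate 1, 0.548% without heterozygote replicate 1, 1.41% without WT replicate 2 and 0.394% without heterozygote replicate 2. The call of Hilpda in basophil or mast cell-like cells was among the calls in each of these. By DESeq2 3 member pairs were called, where 0.13% of all gene tests were. In all kept cells together all 34 members were tested and 0 were called by edgeR or by DESeq2, where 0% of genes were called by edgeR and 0.116% by DESeq2. Hilpda had the only unadjusted p under 0.05 there, at 18.9, 15.7, 10.0 and 12.4 CPM.

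Hilpda fell in the basophil or mast cell-like cells of YAP1 heterozygotes. It was counted with 193, 102, 49 and 18 UMIs, in 92, 49, 33 and 14 cells of 310, 216, 267 and 154. The log2 fold change was -2.05 (SE 0.264 and edgeR adjusted p = 0.0287). In this class 5 of 9169 genes were called (0.0545%). The largest count in any cell was 10 UMIs, and without the top cell of each library the log2 fold change was -2.16. In cluster 25 alone Hilpda stood at 157, 91.4, 32.8 and 35.2 CPM, a log2 fold change of -1.98 (edgeR adjusted p = 0.0364). In cluster 33 alone it stood at 31.3, 33.4, 13.1 and 8.11 CPM, and the log2 fold change of -1.57 did not pass the test (edgeR adjusted p = 0.224). The 12 handling genes summed to 27587, 25464, 26512 and 18832 CPM in the class. Of 11 tested, 8 had negative and 3 positive log2 fold changes, with a median of -0.496. An edgeR unadjusted p under 0.05 was reached by 6 of them, against 546 of all 9169 genes. By edgeR 0 were called, and by DESeq2 1 was, Ier3 (-0.74). The 6 neutrophil transcripts summed to 16173, 12632, 21803 and 12035 CPM. The part of either in the Hilpda result was not tested.

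The other members did not pass the test in basophils at the main settings. Of 29 tested, 25 had negative and 4 positive log2 fold changes, with a median of -0.16 against 0.00340 over all genes of the class. Both heterozygote libraries lay below both WT libraries for 7 members, where 11.5% of all genes did so, and above them for 3, where 25.3% did so. Fold changes are given from here on for genes with an unadjusted p under 0.05 and a mean of at least 10 CPM, a choice made after the values were seen. None of them apart from Hilpda in basophils passed the adjustment by edgeR at the main settings. Slc16a3 had a log2 fold change of -0.81 (SE 0.219 and edgeR adjusted p = 0.385) and Slc2a1 of -0.81 (SE 0.296 and edgeR adjusted p = 0.665). Hif1a had -0.58 (SE 0.169 and edgeR adjusted p = 0.439), Ddit4 -0.51 and Pfkp -0.43. In clusters 25 and 33 alone the values were -0.19 and -0.42 for Ddit4, and -0.59 and -0.079 for Pfkp. They were -0.81 and -0.54 for Slc16a3, -0.57 and -0.66 for Slc2a1, and -0.59 and -0.60 for Hif1a. None of these passed the test, and the part of the cluster mix in the class values was not tested. Pfkp had been counted at 321, 299, 262 and 225 CPM.

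In mature neutrophil-like cells no member passed the test by edgeR at the main settings or by DESeq2. Other edgeR settings on all 4 libraries called up to 3 members, as given in the section on processing. Of 32 tested, 17 had positive and 15 negative log2 fold changes, with a median of 0.04 against -0.00435 over all 9403 genes, of which 0% were called. Both heterozygote libraries lay below both WT libraries for 7 members, where 17.4% of all genes did so, and above them for 3, where 14.7% did so. Of the 12 handling genes 8 had positive and 4 negative log2 fold changes. DESeq2, which called 0.17% of all genes, called Fos (0.93) and Dusp1 (0.80) higher and Nr4a1 (-1.01) lower. Of the 6 neutrophil transcripts 3 were higher and 3 lower, 3 with an edgeR unadjusted p under 0.05. The part of either in the member values was not tested. Hilpda had a log2 fold change of -0.87 (SE 0.173 and edgeR adjusted p = 0.528) and Vegfa of -0.54 (SE 0.197 and edgeR adjusted p = 0.780). Only these 2 members had an unadjusted p under 0.05. Without clusters 9 and 29 the values were -0.82 and -0.47, 6 members lay below without overlap, where 16.3% of all genes did so, and 3 above, where 17.2% did so. Without WT replicate 1 the Vegfa value was -0.22. Without WT replicate 2, where 1.93% of all genes were called, edgeR called Hilpda (-0.89, adjusted p = 0.0369), Vegfa (-0.79, adjusted p = 0.0406) and Ddit4 (-0.89, adjusted p = 0.0394).

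**Figure D5:**
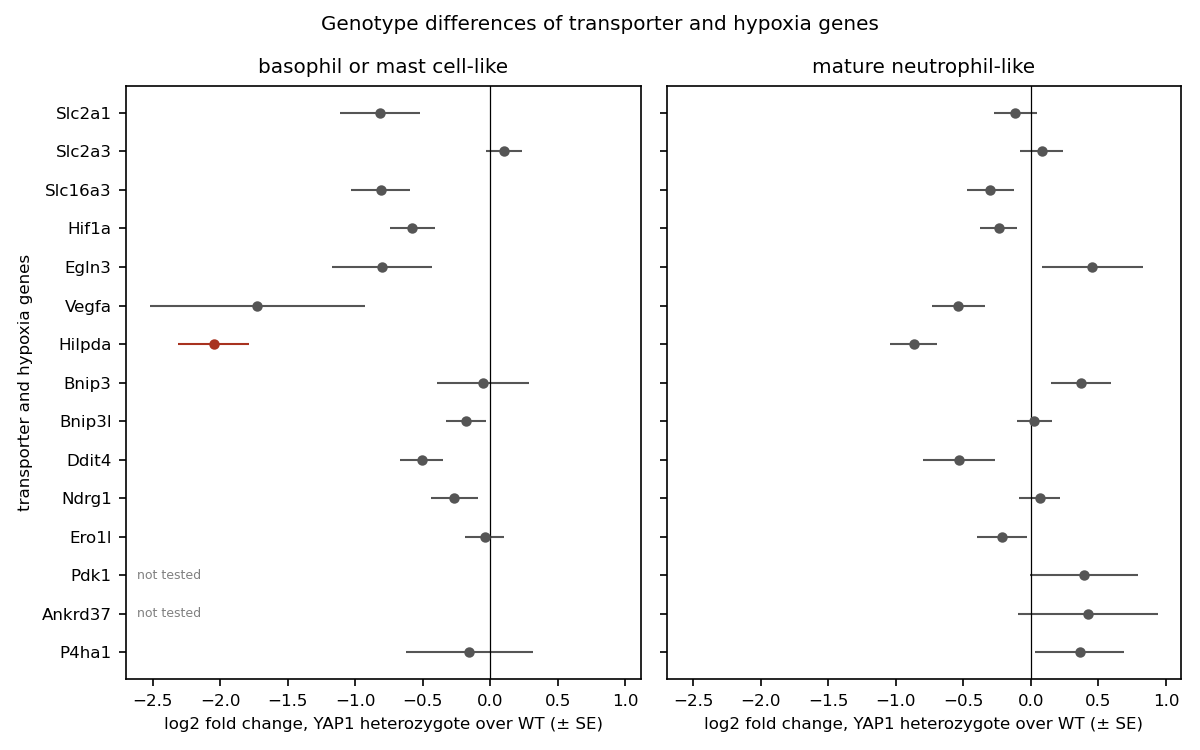
Log2 fold change of YAP1 heterozygote over WT for the 3 transporters and 12 hypoxia genes in basophil or mast cell-like and mature neutrophil-like cells; points are edgeR estimates and bars their standard errors, from 2 libraries per genotype. Only Hilpda in basophil or mast cell-like cells, in red, passed the adjusted threshold, at -2.05.

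By an unadjusted p under 0.05, Hilpda was lower in heterozygotes in 7 classes and Vegfa in 6, more than any other member. Hif1a had a negative log2 fold change in all 18 classes, 4 of them with an unadjusted p under 0.05. Apart from Hilpda in basophils, none of these differences passed the adjustment by edgeR at the main settings. Over all genes and classes 4.71% of edgeR tests had an unadjusted p under 0.05. The same 4 libraries enter each class, so counts over classes are not independent. How many of all genes keep 1 sign in all 18 classes was not counted. The share of all genes that edgeR called was 0.154% in the NK cell or ILC-like class, 0.124% in HSPC-like, 0.0657% in T cell-like, 0.00833% in monocyte-like and 0% in immature neutrophil-like, B cell-like and both dendritic cell-like classes. In immature neutrophil-like cells the log2 fold change of Hilpda was -0.95 (SE 0.165 and edgeR adjusted p = 0.138), and this was called by DESeq2 (adjusted p = 0.0292) and by edgeR without WT replicate 1, WT replicate 2 or heterozygote replicate 2. It was -1.87 in NK cell or ILC-like cells (SE 0.434 and edgeR adjusted p = 0.244), -0.61 in monocyte-like, -0.57 in plasmacytoid dendritic cell-like and -0.49 in B cell-like cells. With no filter on low counts the NK cell or ILC-like value was called (edgeR adjusted p = 3.3e-07), as were 0.573% of its genes. A replicate block called it too (edgeR adjusted p = 0.000264), with 0.74% of genes. The block also called the immature neutrophil-like value (edgeR adjusted p = 1.7e-10), with 3.19% of genes. By edgeR handling genes were called lower in some of the same classes: Nr4a1 in HSPC-like cells, and Atf3, Junb and Nr4a1 in NK cell or ILC-like cells. By DESeq2 Nr4a1 (-0.73) and Atf3 (-0.54) were called lower and Dusp1 (0.46) higher in monocyte-like cells, Zfp36 (0.65) higher in immature neutrophil-like cells, and Junb (-0.67) and Nr4a1 (-1.87) lower in B cell-like cells, as log2 fold changes. In plasmacytoid dendritic cell-like cells all 12 handling genes had negative log2 fold changes, 9 with an edgeR unadjusted p under 0.05, and summed to 7669, 4726, 4849 and 3768 CPM. All 6 neutrophil transcripts had an edgeR unadjusted p under 0.05 there, each lower, and summed to 14118, 7002, 6327 and 3319 CPM. Their part in the values of Hilpda and Vegfa there was not tested.
Vegfa was counted at 16.9, 11, 6.33 and 6.80 CPM in monocyte-like cells, a log2 fold change of -1.09 that DESeq2 called (adjusted p = 0.0252) and edgeR did not (adjusted p = 0.484). In HSPC-like cells it was counted at 48.2, 21.1, 15.4 and 19.6 CPM, with WT replicate 1 far above the rest. Plasmacytoid dendritic cell-like cells had 27.6, 15.001, 9.74 and 10.9 CPM, and conventional dendritic cell-like cells 41.5, 20.4, 7.61 and 13.985 CPM. WT replicate 1 was the highest library in each of these classes. In neutrophil progenitor-like cells, where Vegfa was highest, it stood at 47.2, 46.8, 49.8 and 47.5 CPM, with no such gap.
Ddit4 was higher in heterozygotes with an unadjusted p under 0.05 in 3 classes, more than any other member, and had a positive log2 fold change in 10 of 18 classes, against 14 for Aldoa and 13 for Pgam1. It was counted at 24.3, 19.9, 58.7 and 28.5 CPM in T cell-like cells, a log2 fold change of 0.96 (edgeR adjusted p = 0.625). Plasmacytoid dendritic cell-like cells had 32.2, 32.2, 63.0 and 39.9 CPM, and B cell-like cells 39.4, 25.4, 64.6 and 35.1 CPM. Heterozygote replicate 1 was the highest library in all 3 classes, and none passed the test at the main settings.
In immature neutrophil-like cells Slc16a3 was counted at 142, 134, 117 and 97.0 CPM, a log2 fold change of -0.33 (edgeR adjusted p = 0.453), and Pfkp at 24.3, 20.3, 17.2 and 15.1 CPM, a log2 fold change of -0.43 (edgeR adjusted p = 0.425). Heterozygote lay below WT without overlap for both genes, as for 17.5% of all genes of the class.

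Other genes of the same pathways were tested in the same fits. Of 21 further glycolysis genes, such as Eno2 and Slc16a1, 142 tests over the classes gave 0 calls by edgeR and by DESeq2, and 6 had an edgeR unadjusted p under 0.05. Of 25 further HIF pathway and target genes, such as Epas1, Vhl and Adm, 243 tests gave 0 calls by edgeR, 25 at an unadjusted p under 0.05, and 3 calls by DESeq2, all lower and all of Bhlhe40, a transcriptional repressor, in B cell-like, T cell-like and plasmacytoid dendritic cell-like cells.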

How the data were processed

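The deposited values are raw UMI counts, 1 matrix of genes by barcodes for each of 4 libraries. Cell Ranger 5.0.0 wrote them, per the file headers. Version 3.0.0 of that tool stands in the submitters' processing notes, beside Seurat 4.3.0, GRCm38 and mm10, and which version made the counts is not settled by these sources. Gene positions come from GENCODE M21 (GRCm38). The labels give version 3.1 of the 3' kit, and the sort gates are not given in the sources used here.

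Barcodes were kept from 500 UMIs and 200 genes upwards with mitochondrial UMIs up to 10%, and doublets called by Scrublet (scanpy 1.11.5; 3.38% to 4.40% of a library's barcodes) were removed. Without the 34 members, receptor variable segments and sex chromosome genes, 2000 variable genes, 30 principal components and 15 neighbours gave 42 Leiden clusters at resolution 1.0. A cluster took its name from a marker list, chosen among the 3 lists with the highest mean marker z-score as the one with the most markers in its top 10 genes. It stayed unnamed with no such marker, with under 3 detected markers, or where another list led by over 0.5 in z-score. That last limit was set after seeing the clusters and left out cluster 38. Cluster 40 stayed unnamed because it had no such marker. These 2 clusters held 9, 14, 7 and 18 cells of the libraries in the order used in the report. Stromal or endothelial-like cells (18 in all) were too few to test.

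Counts were summed per class and library and tested with edgeR 4.0.16 (quasi-likelihood, filterByExpr, TMM factors, Benjamini-Hochberg adjustment over a class). CPM uses the UMIs of the class as the total. The scripts were tested on simulated counts. Alternatives were RLE factors, DESeq2 1.42.0, no filter, each library left out, a replicate block, cells with at least 1000 UMIs, Leiden resolution 0.5 and the top Hilpda cell left out. Added after seeing the data were single basophil and mature neutrophil clusters, and mature neutrophils without clusters 9 and 29. UMIs of near-identical copies may be split. The members, lists and tests were chosen with earlier results of these data known, among them Hilpda in basophils, which is therefore no independent support. The naming rule gave values by library for called members, for Hilpda in classes of at least 10 CPM, for hypoxia and transporter members of at least 10 CPM in mature neutrophils or basophils, and for isoenzymes at their highest and lowest share.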

Additional observations from a re-analysis of the deposited data

How the results depend on the processing

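The number of member and class pairs called over the 18 classes was 1 as reported, with RLE factors, with cells of at least 1000 UMIs, at Leiden resolution 0.5 and without clusters 9 and 29. It was 3 with DESeq2, 10 with no filter on low counts and 14 with a replicate block, and between 3 and 16 when 1 library was left out, which leaves a lone library assumed to vary like the other group; the cause of these differences was not tested. Calls over all gene tests rose from 0.0339% as reported to 0.13% with DESeq2, 0.525% with no filter and 0.987% with the block, and to between 0.277% and 1.41% with 1 library left out. In mature neutrophil-like cells the block called Hilpda (-0.88, edgeR adjusted p = 1.1e-06), Vegfa (-0.52, adjusted p = 0.0106) and Ddit4 (-0.50, adjusted p = 0.0231), where it called 3.24% of all genes, and no filter called Hilpda (adjusted p = 0.000513). Of the 14 member calls with the block 12 were lower in the heterozygote, as were 9 of the 10 with no filter. Calls over all genes leaned the same way in mature neutrophil-like cells, where the block called 305 genes, 235 of them lower. With no filter 183 genes were called there, 156 of them lower. In macrophage-like cells the block called 12 genes lower and 16 higher. In all kept cells 0 members were called under each of these settings that was run. Same-numbered libraries had deviations correlated at 0.547 over the kept cells, 0.0285 in the basophil or mast cell-like class and 0.28 in mature neutrophil-like cells; with 2 pairs and no word in the labels, the number is not taken as a pairing, and it coincides with sex by Xist and Ddx3y. Hilpda in basophil or mast cell-like cells stayed called with a log2 fold change between -2.33 and -1.69 when 1 library was left out, and at -2.07 with DESeq2 and -2.10 with the block; in cluster 33 alone it was -1.57 and not called, on fewer cells. In cluster 9 alone, with few cells outside WT replicate 1, the sign turned for Vegfa (0.47) and Hilpda (0.79) in mature neutrophil-like cells. Of the other single-gene values under alternatives, 300 kept their side of the threshold, 40 newly passed it and these 2 reversed. A single isoenzyme led in 111 to 115 of the family and class pairs, against 113 as reported. With 2 libraries per group, small differences and genes under about 10 CPM were not resolvable.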

Other observations

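Some members, hypoxia genes and enzymes, peaked outside the neutrophil and basophil classes. Pdk1, which blocks the entry of pyruvate into mitochondria, was highest in T cell-like cells at 49.9 ± 1.68 CPM (SD, n = 4), ahead of erythroid progenitor-like cells at 30.1 CPM with no overlap between libraries, and lowest in immature neutrophil-like cells at 0.804 CPM. Ankrd37, a HIF target with ankyrin repeats, was highest in B cell-like cells at 27.4 ± 6.23 CPM (SD, n = 4), followed by mature neutrophil-like cells at 9.93 CPM. P4ha1, a subunit of collagen prolyl hydroxylase, was highest in macrophage-like cells at 58.6 ± 25.2 CPM (SD, n = 4), where the libraries varied widely. Ldha was highest in megakaryocyte-like cells at 563 ± 3.73 CPM (SD, n = 4), ahead of erythroid progenitor-like cells at 494 CPM. None of these 4 genes had an edgeR unadjusted p under 0.05 between genotypes in the class where it was highest.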
